A study of Homo sapiens with 3 samples.

Results

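The genes described here encode the heat shock proteins and the DNAJ co-chaperones, whose mRNAs were followed through an RNA pull-down with the RNA-binding protein ZFP36L1. Members were the protein-coding genes of GENCODE release 29 whose symbol is DNAJA, DNAJB or DNAJC plus a number, HSPA, HSPB, HSPD, HSPE or HSPH plus a number, or begins with HSP90. The annotation holds 73 such genes, of which 72 had transcripts in the deposited tables and HSPB9 had none. Together they account for 465 of 181857 matched transcripts and 72 of 52992 genes. A mean of at least 10 estimated counts over the libraries was reached by 58 members, out of 14082 genes that reached it in all, and ratios are given for those 58. RNA was pulled out of lysate of J82, a human bladder cancer cell line grown close to confluence, on GST alone (glutathione S-transferase, the control), on a GST fusion of wild-type ZFP36L1, or on a GST fusion of a ZFP36L1 mutant that the labels call Ala without naming its residues. Each protein has 1 library, all 3 from the same line, so no test across libraries was possible and no p-value is given.

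Heat shock proteins are molecular chaperones that keep other proteins folded, move them across membranes and hold them back from aggregation. The HSP70 proteins work in cycles of ATP hydrolysis that J-domain proteins, the DNAJ family, start and that nucleotide exchange factors complete, and the HSP90 proteins, the mitochondrial chaperonin and the small heat shock proteins act beside them. ZFP36L1 is a zinc-finger protein known to bind AU-rich elements, of which UAUUUAU is the core form, in the 3′ untranslated regions (UTRs) of mRNAs and to promote their decay. A pull-down reports which RNAs stayed with the protein in a lysate, so the values below are shares of recovered RNA and not levels of expression.

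Totals of estimated counts were 19137867 (GST), 19845386 (wild type) and 19153483 (Ala mutant), and the member mRNAs made up 0.751%, 1.20% and 0.666% of the counts of all genes compared. In the names of the deposited tables the run code of the GST library differs from that of the other two, so run and protein cannot be told apart in the comparisons with GST. Keratins KRT7, KRT8 and KRT18 were present in all 3 libraries, while the defining urothelial and basal markers UPK3A and KRT5 were at 0, as was KRT19. EPCAM passed the minimum, while CDH1, GATA3, UPK1B, UPK2 and TP63 did not. Of 6 mesenchymal markers VIM, CDH2, FN1 and ZEB1 passed it, and TWIST1 and SPARC did not. VIM had 41484 counts with GST, 2581 with wild type and 29118 with the Ala mutant. Of 11 leukocyte, erythroid and hepatocyte markers only LYZ passed the minimum, with 13, 7 and 13 counts. Counts below are always given in the order GST, wild type, Ala mutant. A member was called higher or lower at a ratio of at least 2 whose 95% counting interval excluded 1, and these intervals cover counting error only.

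Between wild type and GST the family split evenly. Of the 58 members, 21 were higher with wild type, 21 were lower and 16 were neither. Among all genes compared, 59.7% were called, 25.5% higher and 34.2% lower, so the share of higher members (36.2%) lay above the background and that of lower members (36.2%) close to it. The members' median log2 ratio was 0.28 above that of all genes. Mitochondrial and endoplasmic reticulum (ER) HSP70s, the chaperonin pair and several DNAJB co-chaperones stood on the higher side, and HSPB1, HSPA1A, HSP90B1 and most mitochondrial DNAJC genes on the lower side. Ranked by whichever end of the interval lies closer to 0, HSPA9 came highest and DNAJC17 lowest.

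**Figure D1:**
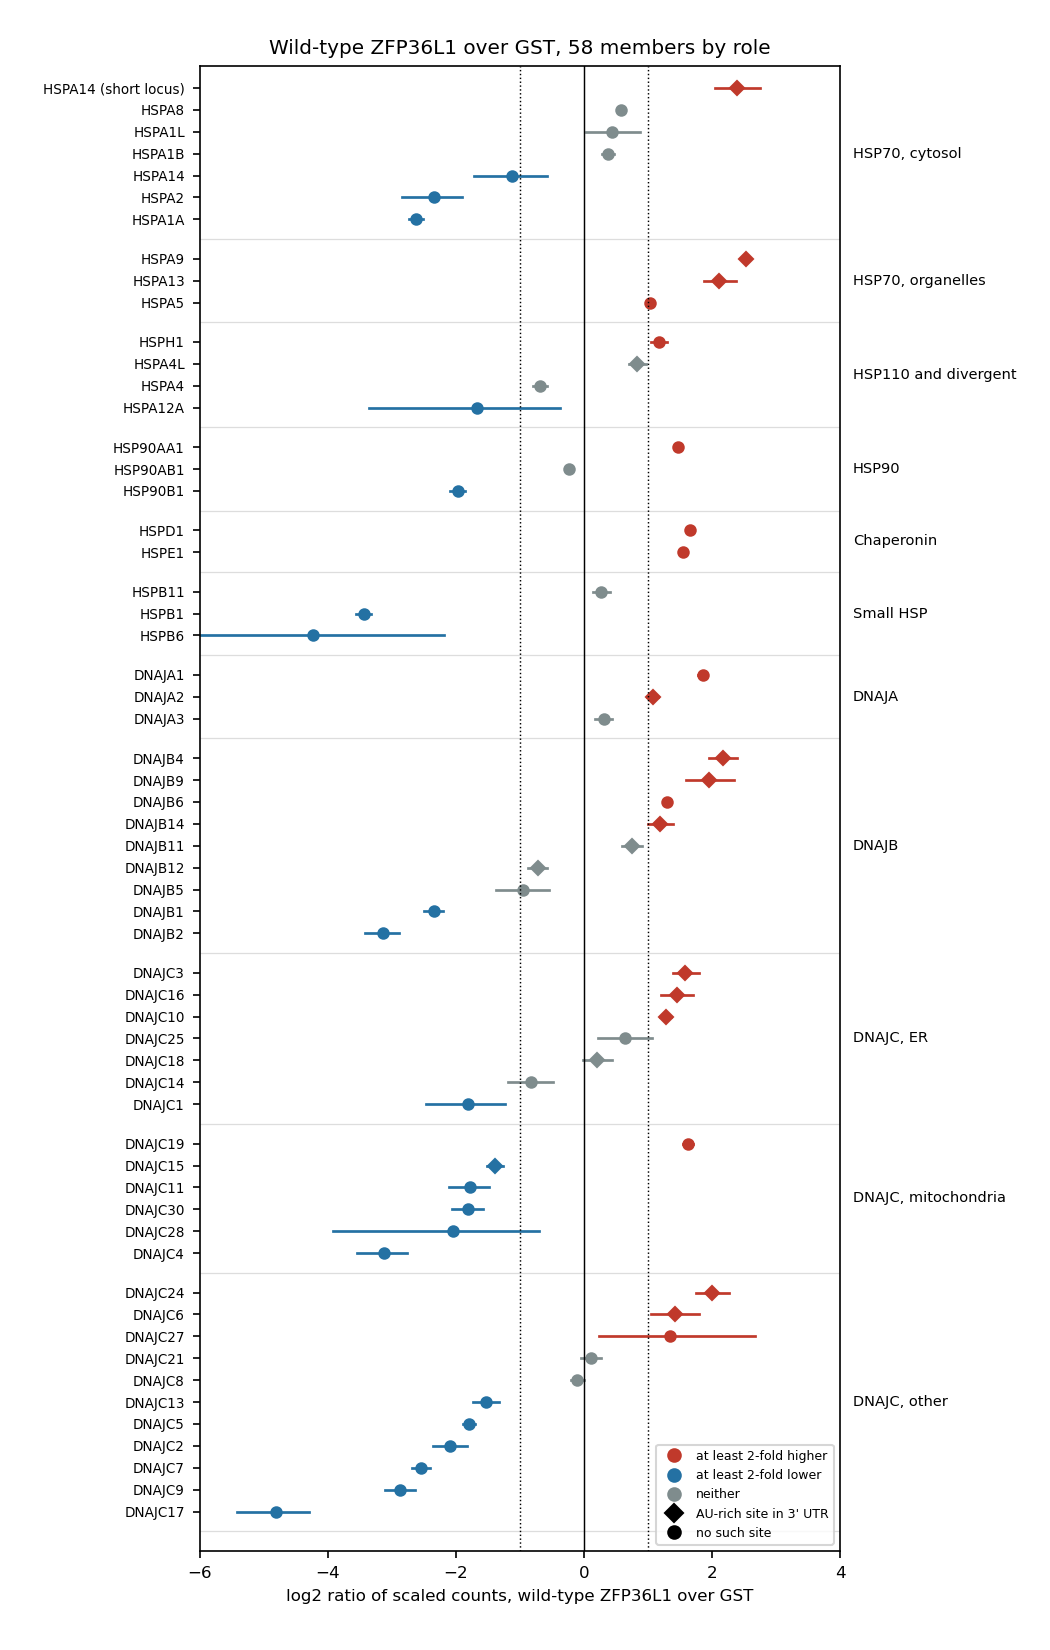
Log2 ratio of scaled counts, wild-type ZFP36L1 over GST (horizontal axis), for the 58 members compared, grouped by role. Points are the ratios of 1 library against 1 library and bars the 95% counting intervals. Dotted lines mark a ratio of 2 in either direction, and diamonds mark UAUUUAU in the 3′ UTR of the most abundant protein-coding transcript. The bar of HSPB6 runs past the axis to -10.1. The organelle HSP70s and the chaperonin lie on the right, and 5 of 6 mitochondrial DNAJC genes on the left.

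The sequences that ZFP36L1 is known for were looked up in the member transcripts, because 4 of the 5 highest-ranked members hold one and none of the 5 lowest does. The windows below are 3′ UTR sequence of GENCODE 29 (GRCh38), 5′ to 3′ on the transcript strand, with the AU-rich core in capitals.
HSPA9 (chr5:138555497-138555523, minus strand): gaaacttagcTATTTATattaggtaca
HSPA14, short locus (chr10:14846061-14846087, plus strand): gtggtattaaTATTTATtaatatgctc
DNAJB4 (chr1:78017288-78017314, plus strand): tttttaaataTATTTATgttttaaaaa
HSPA13, first site (chr21:14371496-14371522, minus strand): tttagtgggcTATTTATaaatagtctt
HSPA13, second site (chr21:14371464-14371490, minus strand): caatttagttTATTTATttaaaagata
DNAJB9 (chr7:108574765-108574791, plus strand): tattctgttaTATTTATgtaacttatt
DNAJC6, first site (chr1:65414612-65414638, plus strand): taaagttcatTATTTATtttacctttt
DNAJC24, first site (chr11:31430560-31430586, plus strand): tgaatataatTATTTATttgtatttat
DNAJC15, first site (chr13:43107961-43107987, plus strand): attctacaaaTATTTATtgaccccttt
DNAJB12, first site (chr10:72334142-72334168, minus strand): tatatatatcTATTTATatgtaaatag
The first 8 lines belong to members called higher with wild type over GST. DNAJC15 and DNAJB12 are shown because they hold the same 7 letters and were lower or neither. For HSPA9, the short locus of HSPA14 and DNAJC15 the annotated transcript has another length than the deposited one. Whether their windows lie in the deposited transcripts is therefore not known. The HSPA9 window starts its core 524 bases after the stop codon of HSPA9-201.

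The heptamer TATTTAT was searched on the transcript strand and counted with overlaps. In the 3′ UTR of the most abundant protein-coding transcript it was found for 17 of 58 members (29.3%). Among genes with an annotated 3′ UTR it was found for 3553 of 11464 (30.99%). In the longest 3′ UTR of each gene the shares were 32.8% and 35.7%, and the shorter ATTTA, which lies within the heptamer, was found in 74.1% of members and 67.8% of genes. Members with the heptamer were mostly on the higher side: 12 of 17 were higher with wild type over GST, 1 was lower (DNAJC15) and 4 were neither (DNAJB11, DNAJB12, DNAJC18 and HSPA4L). Those are 70.6% higher and 5.88% lower, beside 47.3% and 8.67% of all 3553 genes with the heptamer. Their median log2 ratio was 1.46 above that of all genes, beside 0.98 for those genes. Among the 41 members without it, 9 were higher (22.0%) and 20 lower (48.8%), close to the 17.9% and 44.96% of all 7911 genes without it, with a median 0.91 below that of all genes, beside 0.65 below for those genes. A match is a description of the sequence and does not show binding at that place, and the annotated transcript had another length than the deposited one for 10 of 58 members.

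Base composition moved with the ratio as well. Of 31 members whose most abundant protein-coding transcript had under 45% GC, 19 were higher (61.3%) and 7 lower (22.6%) with wild type over GST. Of all genes in that range 44.2% were higher and 7.57% lower. Of 15 members at 52% GC or more, none was higher and 10 were lower (66.7%), beside 7.48% and 64.96% of all genes, so the lower share there was that of the background. Median GC was 41.3% for the higher members and 51.4% for the lower ones. Spearman's rho between GC and the log2 ratio was -0.59 across the 58 members and -0.59 across all genes compared, as a description across genes that share the same libraries. After a cubic fit of the ratio on GC and transcript length over all genes was subtracted, 12 of the 58 members were higher and 16 lower. Of all genes 21.8% were then higher and 22.3% lower, so the share of higher members no longer lay above the background. The members' median lay 0.04 below that of all genes. Members with the heptamer then had a median 0.69 above all genes, and those without it 0.41 below, beside 0.38 above and 0.27 below for all genes with and without it. Of the 17 with it, 5 were then called higher and 1 lower, beside 960 and 301 of the 3553 genes with it. Of the 41 without it, 7 were higher and 15 lower, beside 1464 and 2281 of the 7911 genes without it. The part of GC content in each result was not tested beyond this fit. For wild type over GST, fitted values stand beside members whose call they end or make, or whose called ratio they move more than 1.5-fold. For partner genes the fit is given as counts per list.

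**Figure D2:**
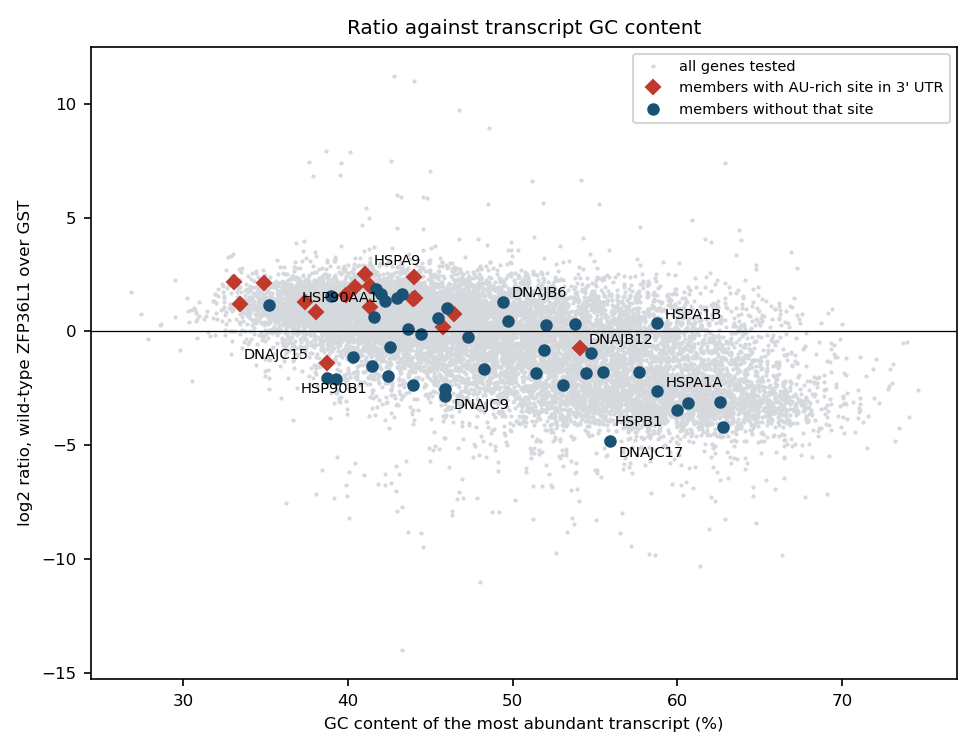
Log2 ratio of wild-type ZFP36L1 over GST (vertical axis) against GC content of the most abundant transcript in percent (horizontal axis). That transcript was taken among protein-coding ones wherever a gene has any. Grey points are all genes compared, diamonds the 17 members with UAUUUAU in the 3′ UTR and circles the other 41 members. Members spread along the same slope as the grey points, with HSPA9 above it and DNAJC15, HSP90B1 and DNAJC17 below.

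All 3 HSP70s of the organelles were higher with wild type over GST. HSPA9, or mortalin, is the mitochondrial HSP70 that pulls imported proteins into the matrix, and its gene lies at chr5:138553756-138575724 on the minus strand. Its estimated counts were 5874, 35868 and 4445, so wild type stood far above both other libraries, which were close together. The log2 ratio of wild type over GST was 2.53 (interval 2.49 to 2.57), a 5.77-fold difference, and it was 2.46 with the GC and length fit subtracted. HSPA13, a microsomal HSP70 without a substrate-binding domain, had 160, 736 and 61 counts, a log2 ratio of 2.12 (1.87 to 2.38), and 0.94 after the fit. HSPA5, the ER chaperone BiP, had 5077, 10944 and 3142 counts. Its log2 ratio of 1.03 (0.98 to 1.07) was the nearest of all members to the 2-fold limit, and with the fit subtracted it was 0.62.

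Cytosolic HSP70s went both ways, with 1 of 7 higher, 3 lower and 3 neither. The 1 higher is the short locus under the symbol HSPA14, described below. HSPA8, the constitutive HSC70, had 8493, 13504 and 6326 counts, a log2 ratio of 0.59 (0.55 to 0.63). HSPA1A and HSPA1B, neighbouring genes on chromosome 6 for the stress-inducible HSP70, had 4807, 828 and 3428 counts and 1494, 2052 and 975 counts. Their log2 ratios were -2.62 (-2.73 to -2.51) and 0.38 (0.28 to 0.47), but 73.6% and 73.1% of their 31-base words also occur in other genes, so the estimation could have split their reads between them. Summed, the pair had 6301, 2880 and 4403 counts and was 2.32-fold lower with wild type than with GST (log2 ratio -1.21, -1.28 to -1.15). Subtracting the fit gave -0.88 for HSPA1A, which ends its call, and 1.998 for HSPA1B.

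The 3′ UTRs of this pair and of HSPB1 hold no heptamer but do hold the pentamer, and the windows are shown because these are stress-inducible members on the lower side or split between copies.
HSPA1A (chr6:31817832-31817856, plus strand): gcagagatgaATTTAtactgccatc
HSPA1B, first site (chr6:31830059-31830083, plus strand): aattctttgcATTTAatgttgatac
HSPA1B, second site (chr6:31830213-31830237, plus strand): taatttgtttATTTAaatatgaaaa
HSPB1 (chr7:76304240-76304264, plus strand): cttttgatacATTTAtcttctgttt
Capitals mark ATTTA, which occurs once in the 3′ UTR of HSPA1A-202 and HSPB1-202 and at 2 places in HSPA1B-201. The bases around it differ between HSPA1A and HSPA1B.

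The symbol HSPA14, known for a ribosome-associated HSP70, names 2 overlapping genes in the annotation. The short locus (ENSG00000284024, chr10:14838160-14847018) had 82, 456 and 69 counts and a log2 ratio of 2.39 (2.05 to 2.75) for wild type over GST, and 1.71 after the fit. Its annotated transcript, HSPA14-204, has 4092 bases, of which 3417 are 3′ UTR, so little of it can be coding. Whether the short locus encodes the full HSP70 was not tested. The long locus (ENSG00000187522, ending at 14871741) had 85, 41 and 93 counts and a log2 ratio of -1.12 (-1.71 to -0.58). They start within a few bases of each other on the same strand, so shared reads could be assigned to either. On the deposited TPM scale the long locus had a log2 ratio of -0.30, which ends its call. HSPA2, the testis-enriched HSP70, was lower (-2.34, and -3.07 after the fit), and HSPA1L was neither (0.45).

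The exchange factors of the HSP110 branch showed smaller differences. HSPH1, or HSP105, had 772, 1837 and 443 counts and was higher with wild type than with GST (1.17, 1.05 to 1.29), but 0.64 after the fit. HSPA4L had 682, 1290 and 464 counts and a log2 ratio of 0.84 (0.70 to 0.97). HSPA4, its close relative, had 1823, 1205 and 1498 counts and lay on the other side of 0 at -0.68 (-0.79 to -0.57). The fit moved HSPA4 to -1.54, past the 2-fold limit. HSPA12A, a divergent HSP70, had 19, 6 and 18 counts and a log2 ratio of -1.67 with a wide interval (-3.36 to -0.36).

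The 3 HSP90 genes took 3 positions. HSP90AA1, the inducible cytosolic form, had 8795, 25908 and 6219 counts and a log2 ratio of 1.48 (1.44 to 1.51) for wild type over GST, which became 0.75 after the fit. HSP90AB1, the constitutive cytosolic form, had the most counts of all members (37571, 33772 and 32170) and differed little between libraries (-0.24, -0.26 to -0.22). HSP90B1, the ER form GRP94, had 2602, 704 and 1765 counts and was lower with wild type (-1.97, -2.09 to -1.85). With GC and length subtracted HSP90B1 stood at -2.70, farther below GST.

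Both subunits of the mitochondrial chaperonin were higher with wild-type ZFP36L1. HSPD1, the HSP60 barrel, had 2954, 9869 and 2346 counts (log2 ratio 1.66, 1.60 to 1.72), and HSPE1, its HSP10 lid, had 8830, 27297 and 9683 (1.55, 1.51 to 1.58). The annotated loci overlap on opposite strands of chromosome 2 (HSPD1 at 197486581-197516737, minus; HSPE1 at 197499994-197503457, plus), and the strand setting of the counting is not given in the sources used here. Neither 3′ UTR holds the heptamer. After the fit HSPD1 was at 0.97, just under the limit, and HSPE1 at 1.22. The 26 annotated HSPE1 pseudogenes carried 609, 1802 and 173 counts, 6.90%, 6.60% and 1.79% of those of HSPE1, and reads shared with them could have gone to either.

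The small heat shock proteins were few in these libraries: 3 of 7 reached the minimum. HSPB1, or HSP27, which binds unfolding proteins before the HSP70s act, had 6171, 602 and 12784 counts. Its order was thus Ala mutant, GST, wild type, and its log2 ratio of wild type over GST was -3.44 (-3.56 to -3.32), 10.8-fold lower. Its transcript has 59.96% GC, and with the fit subtracted the ratio was -1.01. HSPB11, a subunit of intraflagellar transport rather than a typical chaperone, had 853, 1090 and 782 counts and a log2 ratio of 0.27, which the fit took to 1.33. HSPB6, or HSP20, had only 26, 1 and 17 counts, which leaves an interval from -10.1 to -2.18 around its log2 ratio of -4.23. After the fit HSPB6 was at -1.87 and no longer called.

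The DNAJA proteins are the cytosolic and mitochondrial relatives of the bacterial DnaJ, with a J-domain and a zinc-binding region. DNAJA1 had 1956, 7498 and 998 counts, a log2 ratio of 1.86 (1.78 to 1.93) and, after the fit, 1.13. DNAJA2 had 1598, 3561 and 987 counts (1.07, 0.99 to 1.16) and 0.21 after the fit. Both were therefore highest with wild type and lowest with the mutant. DNAJA3, the mitochondrial member, had 784, 1029 and 635 counts and was neither (0.31, 0.17 to 0.45), though at 1.18 after the fit it passed the limit. Its forms went apart: protein-coding DNAJA3-202 had 286, 42 and 104 counts, a log2 ratio of -2.84. Retained-intron DNAJA3-212 had 264, 459 and 292 counts (0.71), and processed transcript DNAJA3-209 had 223, 521 and 224 (1.14). The fit used GC and length of DNAJA3-202, which held 4.12% of the DNAJA3 counts with wild type.

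Of 9 DNAJB genes, 4 were higher, 2 lower and 3 neither with wild type over GST. DNAJB6, which suppresses aggregation of polyglutamine proteins, had 9971, 26103 and 7963 counts and a log2 ratio of 1.31 (1.27 to 1.34). DNAJB4 had 209, 995 and 115 counts (2.17, 1.95 to 2.39, and 1.14 after the fit), and DNAJB9, the ER co-chaperone ERdj4, had 77, 317 and 28 (1.95, 1.60 to 2.34, and 1.07 after the fit). DNAJB14, an ER membrane protein whose 3′ UTR holds 4 heptamers at 33.4% GC, had a log2 ratio of 1.20, and the fit took it to -0.0034. On the lower side were DNAJB1, the main stress-inducible HSP40, and DNAJB2, a co-chaperone with ubiquitin-binding motifs. DNAJB1 had 2359, 491 and 1961 counts (-2.35, -2.49 to -2.21), and DNAJB2 had 1084, 130 and 1694 (-3.14, -3.42 to -2.88). The fit left DNAJB1 at -1.53 and DNAJB2 at -1.16. DNAJB12, the relative of DNAJB14, had 1022, 656 and 1061 counts and a log2 ratio of -0.72 (-0.86 to -0.58) despite its 2 heptamers at 54.1% GC.

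DNAJC proteins share only the J-domain, and those of the ER and secretory membranes had 3 of 7 higher and 1 lower. DNAJC10, the disulfide reductase ERdj5, had 1515, 3895 and 926 counts (1.28, 1.19 to 1.37). DNAJC3, a co-chaperone of BiP also called P58IPK, had 265, 844 and 186 (1.59, 1.39 to 1.79), and DNAJC16 had 178, 515 and 154 (1.45, 1.20 to 1.70). These 3 carry 5, 2 and 3 heptamers, and the fit brought them to 0.48, 0.48 and 0.72, under the limit. DNAJC18 carries 4 heptamers and yet had 290, 355 and 209 counts, a log2 ratio of 0.21 whose interval spans 0 (-0.02 to 0.44). DNAJC1, an ER membrane protein facing the ribosome, was the lower one (-1.81, and -1.22 after the fit). DNAJC14 (-0.83) and DNAJC25 (0.64) were neither.

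Mitochondrial DNAJC genes were the reverse, with 5 of 6 lower and DNAJC19 higher. DNAJC19, the TIM14 subunit that activates HSPA9 at the import channel, had 1520, 4963 and 1685 counts and a log2 ratio of 1.62 (1.54 to 1.71), and 1.63 after the fit. DNAJC15, a paralog of DNAJC19 at the same channel, had 1907, 772 and 1546 counts and went the other way at -1.39 (-1.51 to -1.27), or -2.56 after the fit. DNAJC15 has 2 heptamers in its annotated 3′ UTR, so by the annotation the heptamer and the direction do not go together in this pair. However, the annotated DNAJC15-201, of 7853 bases, has another length than the deposited transcript. Whether the deposited transcript holds these heptamers is therefore not known, and the fit used the annotated length. DNAJC30 had 619, 186 and 848 counts (-1.81, -2.06 to -1.58) and DNAJC4 had 522, 63 and 941 (-3.12, -3.53 to -2.75). Both were highest with the mutant and lowest with wild type, and the fit ended their calls at -0.82 and -0.63. DNAJC11, a partner of the inner membrane cristae complex, was at -1.78 and -0.36 after the fit, and DNAJC28 at -2.05, or -2.73 after the fit, with only 36 counts in all.

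Of the 11 other DNAJC genes, 3 were higher, 6 lower and 2 neither. DNAJC17, a nuclear protein linked to splicing, had 778, 29 and 840 counts, the lowest log2 ratio of the family at -4.80 (-5.42 to -4.29), 27.9-fold lower, and -3.72 after the fit. DNAJC9, a chaperone that also binds histones, had 1199, 174 and 1463 counts (-2.86, -3.10 to -2.64), and -3.22 after the fit. DNAJC7, which bridges HSP70 and HSP90 through its TPR repeats, had 2664, 483 and 2568 counts (-2.54, -2.69 to -2.41). DNAJC5, the vesicle protein CSPα, had 4284, 1311 and 4383 counts (-1.79, -1.88 to -1.70), and -0.52 after the fit. In all 4 the gene sum of wild type stood below those of GST and the mutant. The mutant over GST was called neither in all of them, with the largest log2 ratio in DNAJC9 (0.43). Within DNAJC17 the forms differed: DNAJC17-201 had 699, 10 and 339 counts and the retained-intron form DNAJC17-211 had 73, 19 and 490. The fit used the annotated length of DNAJC17-201, 3731 bases, where the deposited length is 1017. DNAJC13 of endosomes (-1.52) and DNAJC2 of the ribosome (-2.09) were lower too, and the fit moved them to -2.51 and -2.88. DNAJC6, the neuronal auxilin that strips clathrin coats, was higher with 82, 233 and 24 counts (1.42, 1.06 to 1.81), and 0.69 after the fit. DNAJC24, needed for the diphthamide modification of elongation factor 2, was higher as well at 2.002 (1.75 to 2.26), and 1.32 after the fit. Its retained-intron form DNAJC24-209 had 84, 445 and 36 counts (2.32), 65.8% of the DNAJC24 counts with wild type. The protein-coding form with the heptamers, DNAJC24-202, had 73, 192 and 99 counts (1.31), and 0.73 for wild type over the mutant. DNAJC8 had 1583, 1559 and 946 counts and did not differ between GST and wild type beyond the limit (-0.10, -0.21 to -0.002), DNAJC21 was at 0.11, and DNAJC27 was called higher on 48 counts in all (1.34, 0.24 to 2.68, and 0.45 after the fit).

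**Figure D3:**
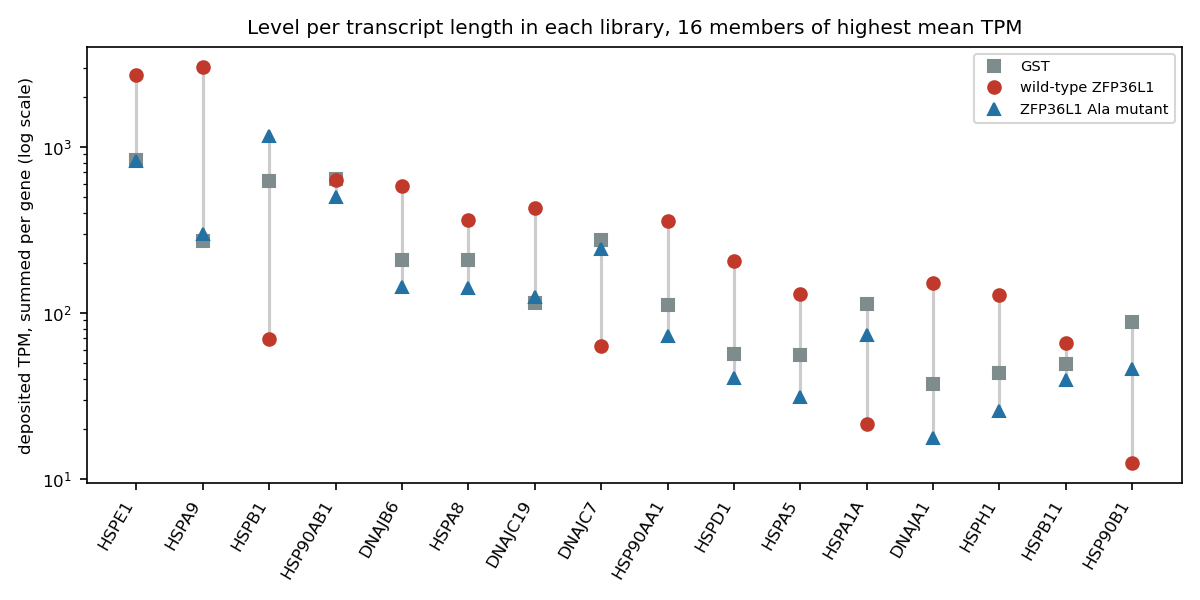
Deposited TPM (abundance per transcript length, scaled to a fixed total) summed per gene, on a log axis, for the 16 members with the highest mean TPM. Squares are GST, circles wild-type ZFP36L1 and triangles the Ala mutant, 1 library each. Circles lie above the other symbols farthest for HSPA9, and less far for HSPE1 and DNAJC19 among others. They lie below farthest for HSPB1, and less far for DNAJC7, HSPA1A and HSP90B1, while the 3 symbols of HSP90AB1 nearly meet.

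Levels between genes were compared per transcript length, in TPM. HSPE1 had 827, 2715 and 825 TPM, HSP90AB1 640, 627 and 496, and HSPB1 621, 69.1 and 1163. These were the 3 highest members with GST. With wild-type ZFP36L1 the order changed: HSPA9 led at 3030 TPM, from 269 with GST and 298 with the mutant, ahead of HSPE1. This TPM sum gives much weight to HSPA9-202, a form of 275 bases that held 15.7% of the HSPA9 counts with wild type and, as the form with the highest mean TPM, also set the GC and length used for HSPA9 in the fit. With the mutant HSPB1 led. DNAJB6 had the highest TPM of the DNAJ mRNAs with wild type, 580 against 207 with GST and 143 with the mutant. DNAJC7 had the highest with GST, 274 TPM against 63.3 with wild type and 242 with the mutant. Its sum gives much weight to DNAJC7-209, a form of 449 bases with 58.8% of the DNAJC7 counts with GST. In counts with GST, DNAJB6 (9971) lay above DNAJC7 (2664).

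The comparison of the Ala mutant with GST gave few differences. Of 58 members, 1 was higher with the mutant (HSPB1), 4 were lower (DNAJB5, DNAJB9, DNAJC6 and HSPA13) and 53 were neither, where 14.1% of all genes were called, 9.00% higher and 5.13% lower. The members' median log2 ratio lay 0.23 below that of all genes. HSPB1 was 2.28-fold higher with the mutant than with GST (log2 ratio 1.19, 1.15 to 1.24). This call was lost when libraries were scaled by totals without the most abundant genes (0.98), on the TPM scale (0.91) and after the GC and length fit (0.53). DNAJC4, at 0.99, fell just short of the limit, and DNAJB2 (0.78), DNAJC30 (0.59) and DNAJC9 (0.43) followed.

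The 4 lower members rest on small counts. DNAJB5, a cytosolic co-chaperone, had 141, 77 and 39 counts and a log2 ratio of -1.70 (-2.26 to -1.19). DNAJC6 had a ratio of -1.61 (-2.35 to -0.96), DNAJB9 of -1.30 (-1.998 to -0.68) and HSPA13 of -1.24 (-1.70 to -0.82). The fit ended the calls of DNAJB9 (-0.92) and HSPA13 (-0.53), and on the TPM scale those of DNAJB9 (-0.94) and DNAJC6 (-0.75) were lost. DNAJC6, DNAJB9 and HSPA13 hold the heptamer, and each was higher with wild type over GST. DNAJB5 has none, and its wild-type library lay between the other two. DNAJA1 came next at -0.83. Across members the relation with GC was the reverse of that for wild type, with Spearman's rho of 0.44 (0.54 across all genes), and its part in the ratios was not tested beyond the fit.

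Set against the mutant, wild-type ZFP36L1 gave the widest spread. Of 58 members, 23 were higher with wild type than with the Ala mutant, 20 were lower and 15 were neither, where 66.1% of all genes were called, 30.1% higher and 36.1% lower. The median log2 ratio was 0.56 above that of all genes, and 0.08 above after the fit. After the fit 15 were higher and 16 lower, beside 22.8% and 24.7% of all genes. The fit kept 11 of the 23 higher and 14 of the 20 lower calls. HSPA13 had the highest rank, 10.3-fold higher (log2 ratio 3.36, 2.99 to 3.77), before HSPA9 at 2.79 (2.74 to 2.84), DNAJB9 at 3.26 (2.72 to 3.89), DNAJB4 at 2.88 (2.61 to 3.18) and DNAJA1 at 2.69 (2.59 to 2.78). The lowest were DNAJC17 at -5.06 (-5.67 to -4.55), 33.2-fold lower, HSPB1 at -4.63 (-4.75 to -4.51), 24.8-fold lower, and DNAJC4, DNAJB2 and DNAJC9 at -4.11, -3.92 and -3.29. After the fit HSPA13 stood at 1.51, HSPA9 at 2.67, DNAJB9 at 2.03, DNAJB4 at 1.13 and DNAJA1 at 1.70. On the lower side the fit left DNAJC17 at -3.76, HSPB1 at -1.50, DNAJB2 at -1.43 and DNAJC9 at -3.78, and it ended the call of DNAJC4 (-0.89). This comparison shares the wild-type library with the first and the mutant library with the one before, so the 3 sets of ratios are not independent.

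By role, the wild type over mutant comparison had the same outline. All 3 organelle HSP70s and both chaperonin subunits were higher, as were 5 of 9 DNAJB, 2 of 3 DNAJA and 4 of 7 ER DNAJC genes, and 4 of 6 mitochondrial and 6 of 11 other DNAJC genes were lower. After the fit 2 of the 3 organelle HSP70s, 5 DNAJB and 2 DNAJA genes were higher but no chaperonin subunit or ER DNAJC gene was, and 3 mitochondrial and 5 other DNAJC genes were lower. DNAJB11, the ER co-chaperone ERdj3, was called higher here (1.16) and not against GST (0.76), and so was HSPA4L (1.25 and 0.84, but -0.42 after the fit for wild type over the mutant). The difference between the 2 comparisons was not tested. Of the 17 members with the heptamer, 14 were higher and 1 lower with wild type over the mutant, and of the 41 without it, 9 were higher and 19 lower. In percent these were 82.4% and 5.88% with the heptamer, beside 57.3% and 9.29% of all genes with it, and 22.0% and 46.3% without it, beside 21.4% and 46.6% of all genes without it, so the members without it lay at the background. After the fit 8 of the 17 were higher and 1 lower, beside 1015 and 343 of the 3553 genes with the heptamer. Of the 41, 7 were then higher and 15 lower, beside 1529 and 2506 of the 7911 genes without it. HSPA8 (0.87) and HSPA1B (0.85) lay just under the limit. Scaling by total counts put both past it, at 1.04 and 1.02.

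**Figure D4:**
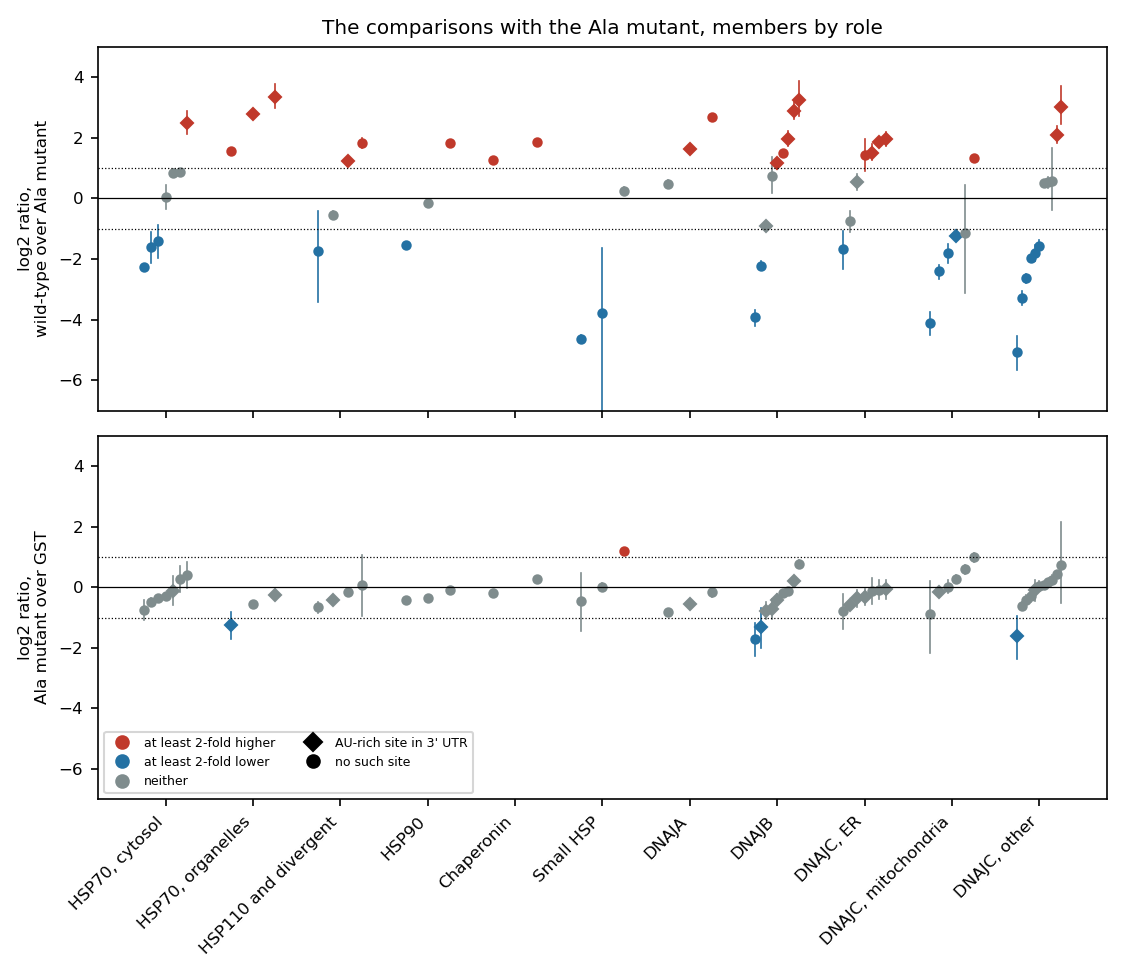
Log2 ratios (vertical axes) of the 58 members by role (horizontal axis), wild type over Ala mutant above and Ala mutant over GST below. Points are ratios of 1 library against 1 library, bars the 95% counting intervals, dotted lines a ratio of 2, diamonds members with UAUUUAU, and within a role members are ordered by the ratio of that panel. The lower panel holds 5 called members, against 43 in the upper one, where the bar of HSPB6 runs past the axis to -9.70.

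Several members have more than 1 abundant protein-coding transcript, and these give a look inside the gene sums. DNAJB6 has a long form (DNAJB6-201) and a short form with another 3′ UTR (DNAJB6-204), and the heptamer lies only in the short one. DNAJB6-201 had 6907, 18935 and 6172 counts (log2 ratio 1.37 for wild type over GST) and DNAJB6-204 had 3048, 7157 and 1777 (1.15), so the form with the heptamer was not the higher of the pair. HSPE1-201 and HSPE1-202 were both higher (1.84 and 1.46), as were HSPD1-202 and HSPD1-201 (2.08 and 1.61) and HSPA9-201 and HSPA9-202 (2.40 and 3.51). HSPB1-201 and HSPB1-202 were both lower (-4.17 and -3.30). For DNAJB12 the 2 forms differ in 3′ UTR length, 2980 and 1818 bases with 2 heptamers each, and the longer was at -3.45 and the shorter at -0.38.

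In other genes the forms went apart. HSPA8-221 had 6201, 13412 and 4397 counts, a log2 ratio of 1.03, and HSPA8-222 had 2051, 0 and 1763, so the modest ratio of the HSPA8 sum combines a form that was higher with a form at 0 with wild type. HSP90B1-207 had 328, 0 and 78 counts beside 1874, 630 and 1465 for HSP90B1-201. DNAJC19-205 was higher (834, 3445 and 1221 counts, 1.96) and DNAJC19-209 was not (301, 173 and 78 counts, -0.88). DNAJC21-201 had 87, 274 and 0 counts and DNAJC21-202 358, 178 and 153. Chosen after their values were seen, HSPA4-203 (631, 0 and 399 counts) and DNAJC17-211 (73, 19 and 490 counts) are retained-intron forms. HSPA4-201 had 1192, 1205 and 1099 counts, so the difference of the HSPA4 sum lay in the retained-intron form. Estimated counts divide reads among forms that share sequence, and a form at 0 can be a failed division, so these values describe the estimates only.

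The members under the minimum were DNAJA4, DNAJB7, DNAJB8, DNAJB13, DNAJC5B, DNAJC5G, DNAJC12, DNAJC22, HSPA6, HSPA12B, HSPB2, HSPB3, HSPB7 and HSPB8. Their counts ran from 0 to 16 in any library. DNAJB8, HSPB2, HSPB3 and HSPB7 were at 0 in all 3 libraries, which allows up to 3 counts in each. HSPA6, a strictly inducible HSP70, had 4, 2 and 5 counts. Readthrough genes were kept apart: DNAJC25-GNG10 had 95, 704 and 0 counts and HSPE1-MOB4 had 10, 7 and 0.

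Partners of the chaperones were read from lists by function. Of all genes compared, 25.5% were higher and 34.2% lower with wild type over GST, and 21.8% and 22.3% after the fit. Among the heat shock transcription factors, HSF1, the main activator of heat shock genes, had 533, 50 and 576 counts (-3.48 for wild type over GST). HSF2 and HSBP1, the small protein that binds HSF1 trimers, were higher (1.27 and 1.85), and HSF4 was lower, so 2 of 4 were higher and 2 lower. After the fit 1 was higher and 1 lower. Of 12 exchange factors and regulators of HSP70, 3 were higher and 5 lower, among them BAG6 (5260, 1034 and 7347 counts, -2.43) and STUB1, the ubiquitin ligase CHIP (2162, 256 and 5693 counts, -3.16). After the fit 1 of the 12 was higher and none was lower, so the calls of BAG6 and STUB1 ended. STUB1 was also higher with the mutant than with GST (1.54), the direction that HSPB1 had, and the fit ended that call too.

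Of 15 HSP90 co-chaperones 1 was higher and 6 were lower (40.0%, beside 34.2% of all genes), and after the fit 1 was higher and 4 were lower. CDC37, which brings kinases to HSP90, had 4581, 269 and 5989 counts (-4.17) and SGTA had 4556, 475 and 6745 (-3.34), while STIP1, the HSP70 to HSP90 adaptor, had 12423, 8231 and 12125 (-0.68) and PTGES3 was at 0.07. The cytosolic chaperonin TRiC with prefoldin had 8 of 14 higher and 4 lower, and 2 higher and 2 lower after the fit. Its subunits did not move as a block: CCT6A had 9680, 25112 and 7548 counts (1.29) and CCT3 had 7600, 765 and 9570 (-3.39). PFDN4 was at 1.56 and PFDN6 at -2.96.

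In the ER, lectins and disulfide isomerases had 3 of 12 higher and 7 lower, with CALR at -2.32, P4HB at -3.85 and CANX at 0.25. After the fit 1 of these was higher and 3 were lower. The genes of the ER stress response had 5 of 9 higher, among them the sensor ERN1 (1.93) and the factor DDIT3 (2.10), and 2 lower, ATF4 (13387, 5474 and 11729 counts, -1.37) and TRIB3 (-2.30). The fit left 4 stress genes higher and none lower. Among J-domain proteins outside the DNAJ symbols, GAK (-2.72) and HSCB (-1.48) were lower, and SEC63 (0.96) was neither. The fit ended the calls of GAK and HSCB. With the mutant over GST, 5 genes of these lists were higher (STUB1, SIL1, TRAP1, SDF2L1 and DDIT3) and BAG2 was lower. Of all genes 9.00% were higher there and 5.13% lower, and after the fit no gene of these lists was called. With wild type over the mutant, higher and lower genes numbered 2 and 2 of 4 heat shock factors, 4 and 5 of 12 HSP70 regulators, 2 and 8 of 15 HSP90 co-chaperones and 7 and 4 of 14 TRiC and prefoldin genes. In the same comparison they numbered 3 and 6 of 12 ER lectins and isomerases and 5 and 2 of 9 ER stress genes. Of all genes 30.1% were higher and 36.1% lower, and 22.8% and 24.7% after the fit. The fit left the heat shock factors with 0 and 0, HSP70 regulators with 1 and 3 and HSP90 co-chaperones with 1 and 5. TRiC and prefoldin then had 2 and 2, ER lectins and isomerases 2 and 3 and ER stress genes 4 and 0.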

How the data were processed

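RNA bound by GST, GST-ZFP36L1 and its Ala mutant was sequenced on a BGISEQ-500, 1 library each. Per the submitters' processing notes kallisto, DESeq2 and hg19 were used; for versions, annotation release, strand setting and what DESeq2 was used for, the answer is not given in the sources used here. Per the file headers, the deposited tables hold the authors' estimated counts and TPM per transcript with transcript and effective lengths.

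Transcripts were joined by identifier to GENCODE 29 (181857 of 196354, 92.6%), whose GRCh38 coordinates are used. Estimated counts were summed per gene, rounded, kept at a mean of at least 10 and scaled with TMM (edgeR 4.0.16; factors 1.03, 1.05 and 0.933). A prior count of 0.5 entered the log2 ratios, and intervals are exact Clopper-Pearson 95% intervals on the split of counts between 2 libraries. Fold changes from 1 library per group have no replicate check. The script was tested on simulated data.

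GC content, 3′ UTRs and motifs are those of the annotated transcript with the highest mean TPM. It was taken among protein-coding transcripts wherever a gene has one, so retained-intron and other forms were passed over. The fit used cubic terms of GC and log2 length. Members and lists were chosen with earlier results of these data known. Counts were given for the 4 most abundant members of each role and the 5 highest and 5 lowest in each comparison, ranked by the interval bound nearest to 0; from each partner list at most 4 genes per comparison were named, and of the other J-domain proteins some results are not reported here. Alternatives were total counts, size factors of DESeq2 1.42.0, totals without abundant genes, TPM with a pseudocount of 0.5, other minimums, a prior count of 2, protein-coding or single transcripts and the fit.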

Additional observations from a re-analysis of the deposited data

How the results depend on the processing

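Of 90 calls of members over the 3 comparisons, 88 kept their direction and their side of the limit under DESeq2 size factors, total counts and totals without the most abundant genes; HSPB1 for the mutant over GST and DNAJC15 for wild type over the mutant lost theirs under the last. Under that scaling the all-gene median shifted by 0.11, -0.21 and 0.32 for wild type over GST, mutant over GST and wild type over mutant, and total counts by 0.03, -0.14 and 0.16. The number of members higher with the mutant than with GST was 1, and became 2 with DESeq2 size factors, 0 with totals without abundant genes, 0 with TPM, 2 with no minimum count, 4 with protein-coding transcripts only, 2 with a single transcript per gene and 0 after the GC and length fit. The number lower was 4, and became 7 with protein-coding transcripts only and 8 with a single transcript; TPM and the fit gave 3 and each kept 2 of the 4 calls. For wild type over GST the fit gave 12 members higher, beside 21.8% of all genes. It kept 9 of the 21 higher and 15 of the 21 lower calls. For wild type over the mutant the fit gave 15 higher, beside 22.8% of all genes. It kept 11 of 23 higher and 14 of 20 lower calls. With the fit the mutant over GST had a median of -0.12. The fit turned 4 calls around: DNAJC11 (0.0060), DNAJB14 (-0.0228) and HSPA4L (-0.42) for wild type over the mutant and DNAJB14 (-0.0034) for wild type over GST. Counting AUUUA in place of UAUUUAU gave 43 members with a match. Leaving out HSPA1A and HSPA1B, whose sequence is mostly shared, or counting sites in the 48 transcripts of deposited length (13 matches), was chosen after seeing the data. No paired analysis was possible because each group has 1 library. With 1 library each, the spread between pull-downs is unknown, and intervals for members with few counts are wide.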
